A study of Mus musculus with 2 samples.

Results

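Expressed transcripts annotated as retained introns were described in G1E-ER4 cells, a mouse erythroid line. The members were the transcripts that the GENCODE annotation types as retained intron and that reached at least 5 TPM in both libraries, a unit of counts per transcript length on a common total. They numbered 910, of 14285 such transcripts (6.37%) and of 103639 Ensembl transcripts in the deposited tables. TPM chose them, so their levels and the shares made from TPM are a description, with no test. The series held 1 group of 2 polyA RNA-seq libraries, replicates 1 and 2, which the labels give as biological replicates of 1 biosample record. G1E-ER4 cells derive from G1E cells, an immortalized line that lacks GATA1, the master regulator of erythroid genes, and carry GATA1 fused to the oestrogen receptor ligand-binding domain. Both libraries came from cells given 10 nM 17beta-estradiol for 14 hours, which activates the fusion, and no untreated or time-zero library was analysed here. With 1 group, no comparison between conditions was possible, and the spread given below is that between the 2 libraries, which may be technical.

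A retained intron is an intron that stays in a polyadenylated RNA after its neighbours have been spliced out. Such RNAs are known to be held in the nucleus, or, once exported, to meet a stop codon inside the intron and to be degraded by nonsense-mediated decay, so they usually give no full-length protein. Differentiating erythroblasts are known for regulated intron retention, including in genes of splicing factors. In the annotation, the type is given by curators to a transcript model that holds intron sequence of another model of the gene. Many of these models are incomplete at 1 or both ends, and their level rests on reads that are shared out between models with common exons.

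The intron bases set these transcripts apart from the coding models, so the introns of 3 highly expressed members and of 8 members with a wholly spanned intron are printed from the GENCODE M21 transcript sequences, 5′ to 3′, with positions on GRCm38. The first 3 were chosen after their values were seen, because they were among the most abundant members and show how a model runs into an intron without crossing it. Each is given with 20 exon bases, and the capitals mark the 2 splice-site bases at the junction of exon and intron. Hba-a1-202 began inside the first intron of the alpha-globin gene and held 113 of its 122 bases (chr11:32283811-32283943, + strand). Rps19-206 began inside intron 3 of 4 of a small-subunit ribosomal protein gene and held 92 of 2729 bases (chr7:24888190-24888301, + strand). Rpl27a-204 stopped inside intron 3 of 4 of a large-subunit ribosomal protein gene, 186 bases into 474 (chr7:109519974-109520179, + strand).
Hba-a1-202: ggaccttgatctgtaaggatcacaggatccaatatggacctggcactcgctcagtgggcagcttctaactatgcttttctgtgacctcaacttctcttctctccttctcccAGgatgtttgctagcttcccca
Rps19-206: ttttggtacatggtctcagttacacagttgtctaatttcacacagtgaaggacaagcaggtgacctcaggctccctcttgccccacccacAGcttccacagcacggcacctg
Rpl27a-204: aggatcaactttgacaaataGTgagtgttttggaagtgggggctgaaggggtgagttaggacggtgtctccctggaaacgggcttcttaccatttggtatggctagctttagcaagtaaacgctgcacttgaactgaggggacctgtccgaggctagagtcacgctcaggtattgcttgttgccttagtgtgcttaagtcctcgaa

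The wholly spanned introns below came from the members with the highest share of their gene's counts and from the splicing regulators. They are at most 300 bases long, lie between coding exons and outside all exons of protein-coding models, and are shown as the shortest new one per member, where the deposited and M21 lengths were equal. The capitals mark the splice-site GT and AG and, where there was one, the first stop codon in the frame of the upstream coding exon. Ndufb10-202 held the last of the 3 introns of a subunit gene of respiratory complex I (160 bases, chr17:24722221-24722380, - strand), with no in-frame stop. Emg1-204 held intron 4 of 5 of the gene of a methyltransferase of small ribosomal subunit assembly (69 bases, chr6:124705089-124705157, - strand), whose only in-frame stop, at base 67 of the intron, shares its last bases with the splice-site AG. Hypk-205 held intron 3 of 4 of the gene of a partner of the N-terminal acetyltransferase NatA (290 bases, chr2:121457702-121457991, + strand), and the stop began at base 2.
Ndufb10-202: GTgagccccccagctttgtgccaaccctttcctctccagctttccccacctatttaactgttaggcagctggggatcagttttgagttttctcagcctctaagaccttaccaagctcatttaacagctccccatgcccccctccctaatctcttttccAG
Emg1-204: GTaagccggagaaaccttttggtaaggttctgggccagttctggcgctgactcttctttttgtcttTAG
Hypk-205: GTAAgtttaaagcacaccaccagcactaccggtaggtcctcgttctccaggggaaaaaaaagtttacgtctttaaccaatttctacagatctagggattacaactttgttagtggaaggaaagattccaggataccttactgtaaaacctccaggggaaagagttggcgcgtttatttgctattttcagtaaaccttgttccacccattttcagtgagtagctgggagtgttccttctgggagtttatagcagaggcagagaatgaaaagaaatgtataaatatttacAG

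Members from genes of splicing regulators carried the following introns. Hnrnpk-206, from the gene of a poly(C)-binding ribonucleoprotein, held intron 14 of 17 (207 bases, chr13:58393869-58394075, - strand) with a stop at base 13. Ptbp1-205, from the gene of a pyrimidine-tract-binding splicing repressor, held intron 5 of 13 (79 bases, chr10:79859523-79859601, + strand) with no in-frame stop, besides a 90-base intron not shown. Hnrnpl-203, from the gene of a CA-repeat-binding ribonucleoprotein, held intron 8 of 11 (270 bases, chr7:28820275-28820544, + strand) with a stop at base 71. Hnrnpdl-206, from a related ribonucleoprotein gene, held intron 6 of 7 (285 bases, chr5:100036196-100036480, - strand) with a stop at base 12. Cirbp-204, from the gene of a cold-inducible RNA-binding protein, held the last of 6 introns (217 bases, chr10:80170765-80170981, + strand) with a stop at base 27. GC content was 32.4% in the Hnrnpk intron and 33.7% in the Hnrnpdl intron, against 60.8% in that of Ptbp1 and 61.3% in that of Cirbp.
Hnrnpk-206: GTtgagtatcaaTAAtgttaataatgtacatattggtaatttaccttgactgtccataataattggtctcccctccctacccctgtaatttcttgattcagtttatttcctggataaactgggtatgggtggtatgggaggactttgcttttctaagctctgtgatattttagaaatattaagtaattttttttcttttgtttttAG
Ptbp1-205: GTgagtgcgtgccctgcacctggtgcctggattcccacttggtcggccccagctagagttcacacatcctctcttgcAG
Hnrnpl-203: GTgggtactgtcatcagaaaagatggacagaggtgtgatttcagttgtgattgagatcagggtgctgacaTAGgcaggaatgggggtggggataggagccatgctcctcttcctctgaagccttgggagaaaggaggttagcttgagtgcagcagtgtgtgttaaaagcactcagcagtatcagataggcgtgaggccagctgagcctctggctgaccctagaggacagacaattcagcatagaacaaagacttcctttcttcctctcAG
Hnrnpdl-206: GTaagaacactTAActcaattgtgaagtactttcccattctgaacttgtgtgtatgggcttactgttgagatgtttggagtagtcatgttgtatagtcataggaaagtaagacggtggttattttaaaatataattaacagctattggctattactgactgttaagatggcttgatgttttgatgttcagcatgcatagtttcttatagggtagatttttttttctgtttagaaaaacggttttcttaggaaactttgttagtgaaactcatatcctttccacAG
Cirbp-204: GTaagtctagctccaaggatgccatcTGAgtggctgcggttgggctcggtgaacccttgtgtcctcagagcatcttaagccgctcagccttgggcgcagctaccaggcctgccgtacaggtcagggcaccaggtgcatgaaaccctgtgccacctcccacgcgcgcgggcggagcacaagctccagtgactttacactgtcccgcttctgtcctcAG

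The libraries held 38395479 expected counts in replicate 1 and 60097379 in replicate 2. Erythroid identity was checked on 16 marker genes, of which 15 reached 1 TPM in both libraries. The exception was Epb42, a late membrane skeleton gene, at 0.67 and 0.80 TPM. Of 14 markers of other cells, 0 reached 1 TPM, 8 were listed at 0 in both libraries, and the highest value was 0.38 TPM (Pf4, of megakaryocytes).

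The 910 members came from 741 genes, and 907 of them lay in protein-coding genes. They made up 11.0% of the 8281 transcripts of any type that reached 5 TPM in both libraries. Their TPM ran from 5.03 to 12916 in replicate 1, with a median of 24.8 and quartiles of 11.3 and 66.4. In replicate 2 it ran from 5.0 to 49617, with a median of 21.7 and quartiles of 10.4 and 52.2. The median of the mean of both libraries was 25.7 TPM. It was 26.2 TPM for protein-coding and 22.3 TPM for nonsense-mediated decay transcripts past the same minimum. At the lower end, 300 members stayed under 20 TPM in both libraries. At the other end, 98 members reached 100 TPM and 11 reached 1000 TPM in both. All members together held 10.6% of TPM in replicate 1 and 16.6% in replicate 2. Without the members of Hbb-bs, Hba-a1 and Gapdh they held 8.63% and 7.80%, so the higher total of replicate 2 lay in those 3 transcripts. By reads, the members without these 3 held 4.27% and 3.94% of the expected counts.

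**Figure D1:**
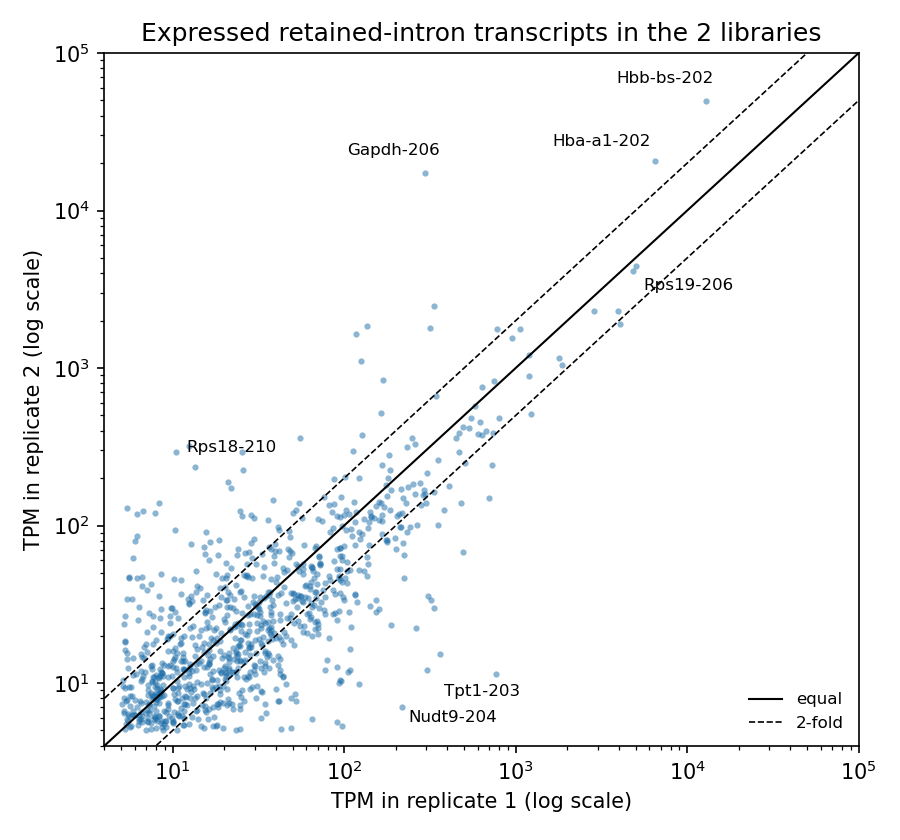
TPM of the 910 expressed retained-intron transcripts in replicate 1 (x axis) and replicate 2 (y axis), both on log scales. Each point is 1 transcript, the solid line marks equal values and the dashed lines a 2-fold difference. Most points lie between the dashed lines, and 332 lie on or beyond them. Gapdh-206 (295 and 17238 TPM) and Tpt1-203 (762 and 11.5 TPM) lie far from the solid line on opposite sides.

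The rule's edge ran through transcripts of continuous levels. The members just inside were Usp19-216, at 8.75 and 5.0 TPM, Pex6-203, at 10.6 and 5.02 TPM, and Wdr46-203, at 23.3 and 5.03 TPM. Just outside lay Tmem234-218, at 6.31 and 4.98 TPM, Thrap3-216, at 4.97 and 7.70 TPM, and Sec23a-202, at 5.33 and 4.94 TPM. Sec23a-202, from the gene of a COPII coat protein, was left out although it was given 92.3% and 93.5% of its gene's TPM. In all, 88 members had 5 to 6 TPM in their lower library, and 92 other retained-intron transcripts had 4 to 5 TPM there.

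Members of genes for globins, Gapdh and ribosomal proteins had the highest mean levels. Hbb-bs-202, of beta-globin, stood at 12916 TPM in replicate 1 and 49617 TPM in replicate 2. Hba-a1-202, the alpha-globin model printed above, stood at 6526 and 20655 TPM. Globin genes are near-identical in pairs, and reads shared between copies make these values uncertain. The deposited length of Hbb-bs-202, 549 bases, also differed from the 344 bases of its M21 model. Gapdh-206, of a glycolytic enzyme, had the next highest mean, owed to replicate 2, with 295 and 17238 TPM.

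Ribosomal proteins, the structural proteins of the ribosome, gave 5 of the 15 members of highest mean TPM. Rpl27a-204 had 5026 and 4471 TPM, and Rps19-206 had 4814 and 4159 TPM. Both were close between the libraries. Rplp2-206 had 3924 and 2293 TPM, and its isoform percent, the share of the gene's TPM given to 1 transcript, was 96.2% in replicate 1 and 47.0% in replicate 2. Rpl13-204 had 4066 and 1909 TPM (84.9% and 50.7% of the gene). Rpl12-202 had 1054 and 1766 TPM, with a steady 89.2% and 91.0% of the gene. The libraries thus differed more in how reads were split for Rplp2 and Rpl13 than for Rps19 (91.1% and 91.2%). Ribosomal protein genes have many processed pseudogenes, so their reads are shared out with added uncertainty.

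The other members of highest level came from genes of varied function. Hdgf-204, of hepatoma-derived growth factor, had 2849 and 2307 TPM (65.2% and 64.6% of the gene). Ndufab1-208, from the gene of the mitochondrial acyl carrier protein, had 1779 and 1159 TPM, and Ncl-205, from the nucleolin gene, had 1196 and 1208 TPM. Both held over 90% of their gene's TPM in both libraries. Rnaseh2a-205, from the gene of the catalytic subunit of ribonuclease H2, had 1865 and 1041 TPM, although only 27 of its 338 bases lay outside the exons of protein-coding models. Tpt1-206, of translationally controlled tumour protein, had 954 and 1560 TPM. Rack1-203, of a ribosome-bound scaffold protein, had 332 and 2488 TPM, and Gpx4-203, of a lipid peroxide-reducing enzyme, had 777 and 1773 TPM. These last values were higher in replicate 2 by more than 2-fold.

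Members differed widely in how much of their gene they held. The median isoform percent was 39.2% in replicate 1 and 34.3% in replicate 2, and quartiles ran from 13.7% to 68.4% and from 12.4% to 66.2%. At least 50% of the gene's TPM went to 279 members (30.7%) in both libraries, at least 90% to 46, and under 10% to 130. Summed over members, 318 of the 741 genes had at least 50% of their TPM on retained-intron models in both libraries. The median over members of the mean of both libraries was 36.8%, against 76.7% for the 6045 protein-coding transcripts and 46.8% for the 377 nonsense-mediated decay transcripts past the same minimum.

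The share was smaller when it was taken from reads. TPM divides counts by effective length, the number of positions at which a fragment can start, and members were short. By expected counts, the median share of the gene was 23.2% in replicate 1 and 21.1% in replicate 2. At least 50% of the gene's counts went to 144 members (15.8%) in both libraries and at least 90% to 15. The isoform percent exceeded the share of counts in both libraries for 697 of 910 members. Gpx4-203, 280 bases long, had an effective length of 133 bases in replicate 1 and 124 in replicate 2, and held 44.1% and 81.5% of its gene by TPM but 12.3% and 40.6% by counts. For the 166 members under 500 bases, the median of the 2 libraries' mean share was 41.7% by TPM and 17.2% by counts. For the 115 members of 2000 bases or more it was 34.9% by TPM and 38.3% by counts.

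**Figure D2:**
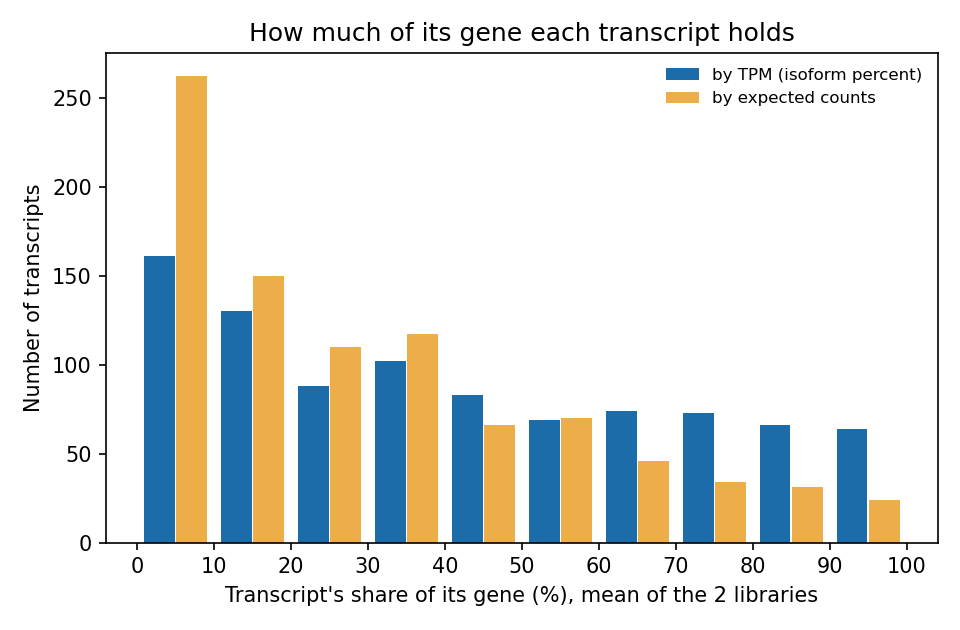
Number of expressed retained-intron transcripts (y axis) by their share of the gene, in steps of 10 percentage points (x axis, mean of the 2 libraries). Blue bars give the share of TPM and yellow bars the share of expected counts. The lowest step holds 161 transcripts by TPM and 262 by counts, and the highest 64 and 24.

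Some members were given nearly all the expected counts of their gene. These counts are shared out between models with common exons. The bases outside the exons of protein-coding models were few in some, such as 69 of 917 in Emg1-204 and 55 in Hbb-bs-202. Besides Hbb-bs-202, Eif1ax-202, from the gene of the initiation factor eIF1A, had 492 and 424 TPM and held 98.5% and 95.7% of the gene's counts. Ndufb10-202, which holds the 160-base intron printed above, had 745 and 823 TPM with 96.1% and 96.9% of the counts. Emg1-204, which holds the 69-base intron, had 149 and 111 TPM with 95.9% and 94.8%. Hypk-205, which holds the 290-base intron, had 95.5 and 152 TPM with 92.6% and 95.3%. All 4 held over 90% of the counts in both libraries.

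The others of this kind came from unrelated genes. Ndufa12-202, of another complex I subunit, had 345 and 660 TPM (91.3% and 96.2% of the counts). Taf10-201, of a subunit of the general transcription factor TFIID, had 667 and 399 TPM (93.1% and 92.0%). Its deposited length was 667 bases and its M21 model has 678, of which 87 lay outside the exons of protein-coding models. Vangl1-204, of a planar cell polarity protein, had 52.1 and 56.9 TPM, and Bnip1-204, of a SNARE protein of the endoplasmic reticulum, had 22.7 and 22.5 TPM. Chuk-207, of a kinase that activates NF-kappaB, had 37.7 and 19.0 TPM (92.9% and 91.7%). Yars2-205, of the mitochondrial tyrosyl-tRNA synthetase, had 36.4 and 22.2 TPM (95.03% and 94.1%), yet 0 of its 1412 bases lay outside the exons of protein-coding models.

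In a minority of genes, several models were expressed side by side. Of the 741 genes, 618 had 1 member, 90 had 2 and 33 had 3 or more. The most was 6, in Ncapd2, of a condensin subunit, and in Rhot2, of a mitochondrial outer-membrane GTPase. The 6 members of Ncapd2 together held 94.0% of the gene's TPM in replicate 1 and 88.1% in replicate 2, and those of Rhot2 held 79.1% and 87.9%. Single models differed more: Ncapd2-206 held 13.4% and 1.47% and Ncapd2-209 held 11.2% and 27.96%.

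Members were short and mostly held part of an intron, not a whole one. Their median length was 745.5 bases, with quartiles of 565 and 1063, against 784 for the 6632 other retained-intron transcripts of expressed genes and 2054 for the protein-coding transcripts past the same minimum. The median number of exons was 3, and 12 members had a single exon. A whole intron of a protein-coding transcript of the gene lay inside 1 exon of 328 members (36.0%), of which 233 spanned 1 annotated intron and 95 more. With overlapping versions of an intron merged, 267 members spanned 1 stretch and 61 more, up to 10. Another 354 members (38.9%) only ended in an intron, 192 (21.1%) only started in one, 20 did both and 16 did none of these. Among the other retained-intron transcripts, 33.6% spanned an intron, 29.2% only ended in one and 26.6% only started in one. Models that both started and ended in an intron without spanning one, 8.66% of those, made up 2.20% of the members. The genes of these other transcripts were lower, with a median of 35.5 and 35.6 TPM against 113 and 99.5 TPM for the members, counted per transcript. The part of gene level in this and later comparisons with them was not tested.

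**Figure D3:**
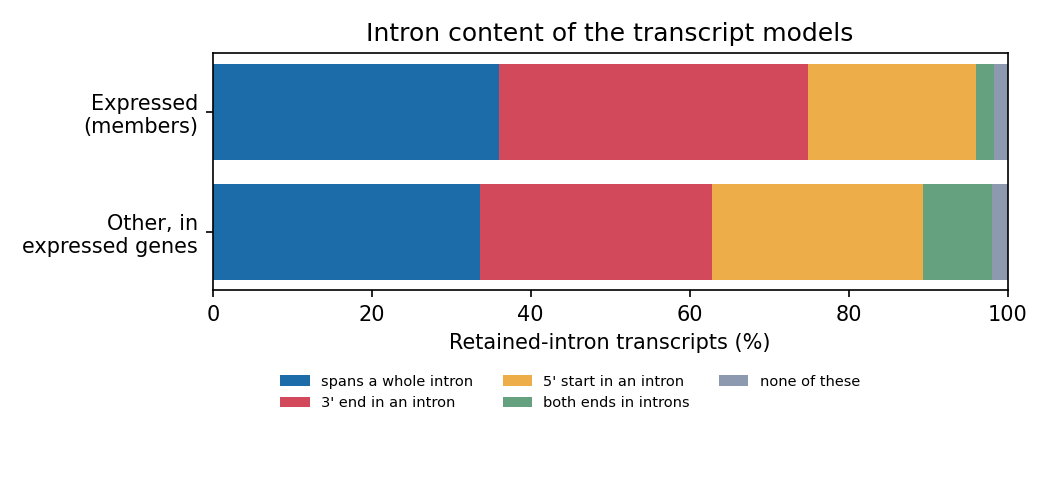
Intron content of the 910 expressed retained-intron transcripts (upper bar) and of the 6632 others of expressed genes (lower bar), in percent (x axis). Colours give the classes, each transcript counted once. The members spanning a whole intron make up 36.0% and those with only the 3′ end in an intron 38.9%.

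The bases that set a member apart were few. The median member had 192.5 bases, 25.7% of its length, in no exon of a protein-coding transcript, against 320.5 bases (40.8%) for the other retained-intron transcripts. At least 50 such bases were held by 832 members (91.4%), and 6 members had 0. The classes also differed in share. Members that only ended in an intron had a median isoform percent of 57.1% in replicate 1 and 53.8% in replicate 2, those that only started in one 40.3% and 41.6%, and those that spanned a whole intron 21.9% and 17.0%. By counts, the medians of the mean of both libraries were 33.3%, 18.7% and 15.7%. Members that only ended in an intron were also shorter (median 666.5 bases) than those that spanned one (887.5 bases), and the part of length or of position along the gene in these shares was not tested.

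The wholly spanned introns were short. The members spanned 465 distinct annotated introns in 276 genes, with a median length of 152 bases and quartiles of 88 and 306. Alternative versions of an intron counted separately, and merging them left 394 stretches with a median of 145 bases. The 465 included 4 gaps of 1 or 4 bases in the models of Oaz1 and Oaz2, genes of antizymes, which are made by ribosomal frameshifting. These gaps are no spliced introns, and without them the median was 154 bases. The 2863 introns spanned by the other retained-intron transcripts had a median of 242 bases. The 10755 other introns of the members' genes had a median of 810 bases. In the genes that had a spanned intron, the 3570 other introns had a median of 403 bases, so part of the gap lay between genes. At most 300 bases was the length of 74.6%, 56.7% and 29.0% of these groups. In the 275 genes with both kinds, the median spanned intron was shorter than the median other intron in 217 and longer in 58. A model must fit an intron into 1 exon and was chosen by a level per length, and the part of either in this difference was not tested.

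**Figure D4:**
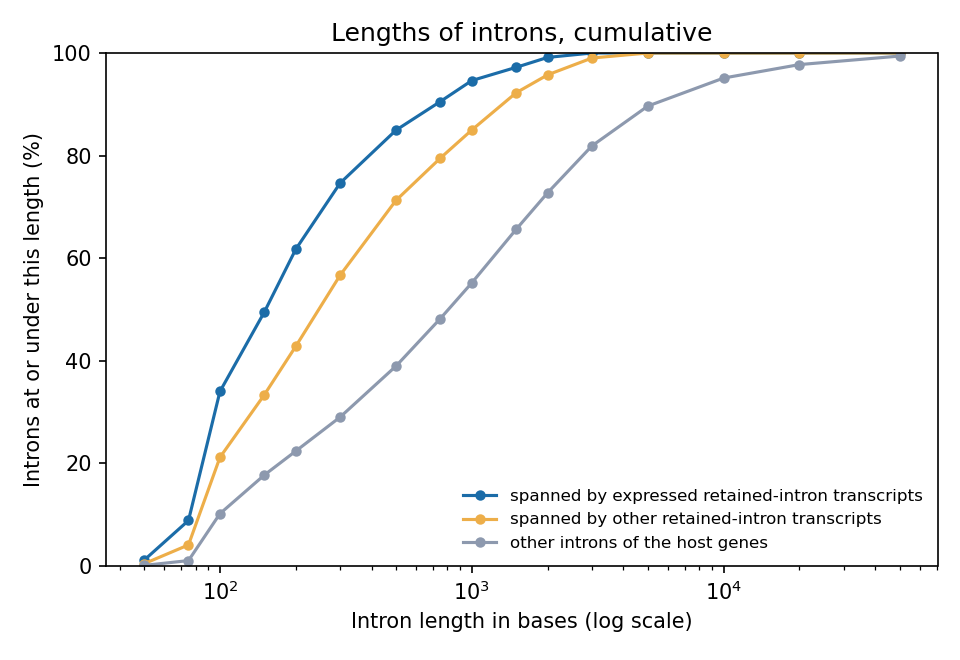
Cumulative percent of introns (y axis) at or under each length in bases (x axis, log scale), for the 465 introns spanned by the members (blue), the 2863 spanned by other retained-intron transcripts of expressed genes (yellow) and the 10755 other introns of the members' genes (grey). At 300 bases the curves stand at 74.6%, 56.7% and 29.0%.

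The spanned introns had more GC than those of the other retained-intron transcripts, and ordinary splice sites. Their median GC content was 56.9%, against 52.0%, and the members' whole sequences had 56.2% against 50.6%. GC was lower in longer introns: 61.0% against 56.7% between 30 and 99 bases, and 51.8% against 47.8% from 400 bases. The GC of introns that no transcript spans was not computed. The introns spanned by members began with GT and ended with AG in 452 cases (97.2%), against 98.1%, and 5 had GC-AG ends. The start that marks introns of the minor spliceosome, ATATCC or GTATCC at the first bases of the intron on its own strand, was found in 3 (0.645%, against 0.629%). These lay in Polr2e, of a subunit shared by the RNA polymerases, Pcyt2, of phosphatidylethanolamine synthesis, and Drap1, of a transcriptional corepressor. First introns made up 14.8% (against 9.47%) and last introns 10.8% (against 8.10%). Each version of an intron was numbered in a coding model that holds it, which can be a short one, and overlapping versions counted separately. In Ccnd3, overlapping versions were numbered 4 of 6 in Ccnd3-218 and 1 of 3 in Ccnd3-208. The part of this numbering in the shares was not tested.

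Most of these introns would end the reading frame. Of the 437 spanned introns with coding sequence on both sides, 342 (78.3%, 95% Wilson interval 74.2 to 81.9%, counting error only) held a stop codon in the frame of the upstream exon. Overlapping versions of an intron were counted separately, and the interval makes no allowance for that. The share with a stop was 88.3% for the 2679 such introns of the other retained-intron transcripts. It moved with length. Between 30 and 99 bases it was 57.6% against 68.2%, between 100 and 199 bases 77.95% against 83.0%, and between 200 and 399 bases 98.8% against 95.9%. The introns with a stop had a median of 191 bases and those with none 86 bases. There were 95 with no stop (91 without the antizyme gaps), and 27 of them had a length that is a multiple of 3 and so would leave the frame downstream unchanged. Lengths that are multiples of 3 made up 33.5% of all spanned introns and 33.8% of those in the other retained-intron transcripts.

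The 2 libraries often differed in the level of a member. At least a 2-fold difference in TPM was found for 332 members (36.5%), against 27.3% of all transcripts past the minimum. Replicate 2 was the higher by this fold in 131 members (14.4%, against 11.6%) and replicate 1 in 201 (22.1%, against 15.7%). The share was 24.4% for protein-coding transcripts, 31.8% for nonsense-mediated decay transcripts, 35.4% for processed transcripts and 30.3% for the 743 protein-coding transcripts of the members' own genes. Members had fewer reads: their median expected count was 558 and 901, against 1531 and 2672 for protein-coding transcripts. The deposited TPM interval had a median half-width of 12.5% and 9.93% of the value for members, against 6.41% and 4.94%. The part of depth in these differences was not tested.

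Of the 332 members, 198 belonged to genes whose TPM differed less than 2-fold, 126 to genes that differed 2-fold the same way and 8 to genes that differed the other way. The 332 were chosen by their own fold, and the TPM of a gene includes that of its member. A smaller fold of the gene is therefore favoured by the choice, and the split does not set members apart from other transcripts. The isoform percent differed by over 20 percentage points for 182 members, with a median absolute difference of 7.73 points, and 143 members crossed 50% between the libraries. Neither this nor the split by gene was computed for other transcripts past the minimum, so neither can be called particular to the members.

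Single members shifted by large factors. Gapdh-206, with its 295 TPM in replicate 1 and 17238 in replicate 2, showed a 58.4-fold difference, and its isoform percent was 13.3% and 69.9%. Rps18-210, of a ribosomal protein, had 10.5 and 295 TPM (28.2-fold). Gpi1-204, of the glycolytic enzyme glucose-6-phosphate isomerase, had 12.4 and 318 TPM (25.6-fold), and Eno1-211, of enolase, had 5.39 and 129 TPM (24.0-fold). Aldoa-209, of the glycolytic enzyme aldolase, lay the other way, with 1227 and 510 TPM, and was named after its values were seen. Arrb1-206, of a receptor-desensitizing arrestin, had 6.20 and 118 TPM (19.1-fold).

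In the other direction, Tpt1-203 had 762 TPM in replicate 1 and 11.5 in replicate 2, a 66.3-fold difference, while its gene had 1893 and 2189 TPM. Nudt9-204, of an ADP-ribose pyrophosphatase, had 216 and 7.09 TPM (30.5-fold), and Tmem131-207 had 303 and 12.2 TPM (24.9-fold). Chchd2-202, of a mitochondrial protein, had 360 and 15.2 TPM (23.6-fold). Por-204, of the electron donor of cytochrome P450 enzymes, had 97.0 and 5.32 TPM (18.2-fold).

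The host genes were set against 15 gene lists. Of 2808 expressed protein-coding genes with an annotated retained-intron transcript, 734 (26.1%) had at least 1 member, and the count of each list is given of its genes of that kind. Splicing regulators had members in 16 of 34 genes (47.1%), ribosomal proteins in 19 of 44 (43.2%) and aminoacyl-tRNA synthetases in 7 of 17 (41.2%). Chaperones had 8 of 22, RNA decay and export 9 of 25, the respiratory chain 11 of 32 and translation factors 6 of 18. Near the background lay the proteasome, with 6 of 21, replication and cell cycle, with 9 of 33, the red cell membrane and skeleton, with 3 of 12, and chromatin regulators, with 10 of 44. Below it lay haem synthesis and iron, with 2 of 12, the core spliceosome, with 3 of 32, and the erythroid transcription regulators, with 0 of 10. Globins had 2 of 3. Lists differ in level, and a TPM minimum favours high genes: the median gene TPM over these genes was 202 and 811 for ribosomal proteins, 84.6 and 116 for splicing regulators and 67.1 and 77.6 for the core spliceosome. The part of level in these counts was not tested.

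**Figure D5:**
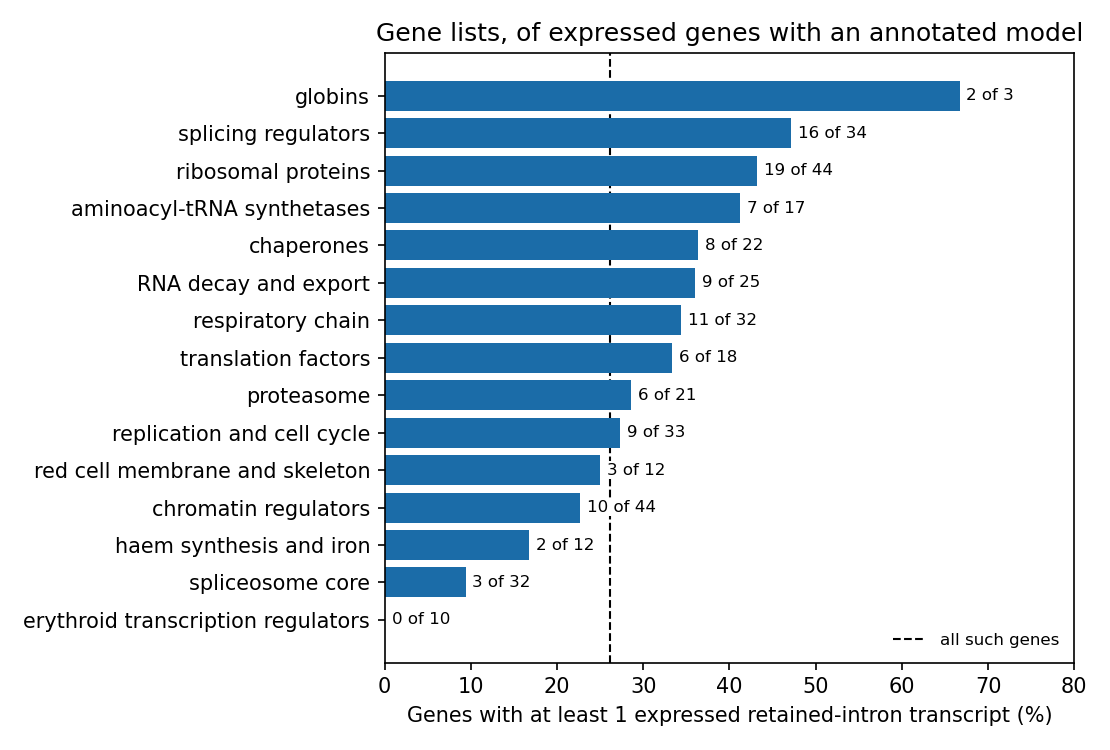
Percent of the genes of each list with at least 1 expressed retained-intron transcript (x axis), of the expressed genes with such a model annotated. The numbers beside the bars are gene counts and the dashed line marks the 26.1% of all such genes. Splicing regulators (16 of 34) lie above the line and the core spliceosome (3 of 32) below it.

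Splicing regulators, the RNA-binding proteins that choose splice sites, had 22 members. Their median isoform percent was 19.2%, and 3 held at least 50% of their gene in both libraries. Ptbp1-204 had 582 and 575 TPM, the same level in both libraries, while its isoform percent was 83.2% and 57.3%. Other Ptbp1 models were higher in replicate 2. Ptbp1-205, which holds the 79-base intron printed above, had 24.6 and 124 TPM, and Ptbp1-213 had 16.5 and 78.5 TPM. Hnrnpm-203 had 451 and 361 TPM (70.0% and 65.0% of the gene), but its deposited length of 636 bases differed from the 2626 of the M21 model.

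Hnrnpk-206, which holds the AT-rich 207-base intron, differed most within the list, with 322 TPM in replicate 1 (62.9% of the gene) and 33.5 TPM in replicate 2 (3.77%). Rbm39-208, of a splicing coactivator, had 230 and 139 TPM (56.6% and 38.6%). Tra2b-203, of an SR-like activator whose gene is known for a poison exon, had 31.6 and 30.5 TPM with 54.9% and 57.7% of the gene. Among SR proteins, which bind exonic enhancers, Srsf1-206 had 87.1 and 59.8 TPM (23.8% and 21.8%), Srsf6-204 had 63.3 and 25.4 TPM (33.7% and 24.9%) and Srsf11-203 had 24.6 and 5.09 TPM (40.3% and 8.02%).

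The remaining members of this list ranged widely in share. Of 3 Hnrnpl models, Hnrnpl-212 had 66.5 and 46.6 TPM, Hnrnpl-203, with the 270-base intron, 26.9 and 47.8 TPM, and Hnrnpl-205 9.58 and 24.2 TPM. Each held under 10% of its gene in both libraries. Tial1-208, of a U-rich RNA-binding protein, had 38.3 and 24.7 TPM (59.5% and 44.7%), but its deposited length of 2224 bases differed from the 4266 of the M21 model. Mbnl1-225, of the muscleblind factor, had 31.9 and 29.6 TPM (16.8% and 21.5%). Clk2-207, of a kinase of SR proteins, had 18.2 and 7.38 TPM and spanned 2 introns, of which 1 is annotated with a pair of acceptor sites. The members of the cold-inducible pair were each level in TPM between the libraries and differed in share. Cirbp-204, with the 217-base intron, had 8.48 and 8.60 TPM with 19.1% and 19.6% of its gene, which had 44.5 and 43.9 TPM. Rbm3-209 had 13.7 and 13.2 TPM with 44.0% and 7.05% of its gene, which had 31.1 and 188 TPM. Hnrnpdl-206 had 26.1 and 10.9 TPM, and Srrm2-209, of a spliceosome-associated SR-related protein, 10.1 and 16.0 TPM.

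The core spliceosome had 4 members in 3 genes. Eftud2-209, of the U5 GTPase, had 153 and 134 TPM (78.5% and 43.2% of the gene). Bcas2-204 and Bcas2-205, of a subunit of the PRP19 complex, had 33.5 and 47.7 TPM and 35.9 and 24.4 TPM. Sf1-207, of the branch-point-binding protein, stood near the minimum at 5.23 and 8.09 TPM.

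In the respiratory chain the median isoform percent was 31.5% over 15 members, in ribosomal proteins 18.8% over 27 and in translation factors 40.6% over 8, so the members named here, chosen by TPM, do not stand for their lists. Among respiratory chain members, Ndufab1-208, Ndufb10-202 and Ndufa12-202 were joined by Ndufb2-206, at 301 and 139 TPM (93.3% and 79.4% of the gene), all of them complex I subunits. Of 8 members among translation factors, 4 held at least 50% in both libraries, among them Eif2b2-206, of an exchange factor subunit, at 507 and 248 TPM (87.7% and 68.7%). Only 7 bases of this model lay outside the exons of protein-coding models. Among aminoacyl-tRNA synthetases, which charge tRNAs, Yars-202 had 64.6 and 54.4 TPM (87.0% and 74.8%), Vars2-202 77.3 and 35.3 TPM and Vars-212 110 and 95.5 TPM. Mars-204 had 12.8 and 76.4 TPM, the largest difference of the named members in that list.

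RNA decay and export genes were led by Cnot3-202, of the CCR4-NOT deadenylase complex, at 536 and 417 TPM (55.6% and 54.7%), ahead of Sap18-205 at 177 and 154 TPM. Alyref-203, of an mRNA export adaptor, had 138 and 96.5 TPM (25.9% and 24.0%), and Acin1-210, of an exon junction-associated protein, 143 and 116 TPM. These 4 were similar in both libraries. Chaperone members were less so: Hsp90aa1-205 had 21.1 and 188 TPM (36.3% and 86.1%) and Dnajc8-203 25.7 and 224 TPM, whereas Bag6-204 had 171 and 131 TPM and Fkbp8-206 55.4 and 23.1 TPM.

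Cell-cycle and chromatin genes had members at a share near the background. Ccna2-202, of cyclin A, had 796 and 485 TPM with 88.0% and 90.7% of the gene. Cdk4-209, of a G1 kinase, had 25.5 and 294 TPM, and Rpa1-205 and Rpa2-202, of the single-strand DNA-binding complex, had 48.3 and 84.8 TPM and 27.9 and 67.6 TPM. Among chromatin regulators, Sirt2-204, of a deacetylase, had 185 and 227 TPM, and Eed-202, of the Polycomb complex that methylates histone H3, had 50.5 and 120 TPM (68.1% and 88.1%). Ctcf-206, of the insulator protein, had 97.7 and 60.2 TPM, and Chd3-203, of a nucleosome remodeller, 86.4 and 27.4 TPM. In the proteasome list, Psmd6-203 had 58.3 and 75.7 TPM (72.2% and 86.1%), and the other 5 members had at most 77.9 TPM in either library.

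The red cell lists had members in 3 of 12 genes of the membrane and skeleton and 2 of 12 of haem synthesis and iron, as given above. Tpm3-212, of a tropomyosin of the membrane skeleton, had 96.7 and 98.6 TPM (62.3% and 80.4%). Bsg-206, of the membrane glycoprotein basigin, had 106 and 28.1 TPM (5.69% and 2.26%), and Add1-207, of alpha-adducin, had 19.2 and 35.4 TPM. In haem synthesis and iron uptake, Tfrc-206, of the transferrin receptor, had 10.1 and 5.65 TPM (45.8% and 33.1%). Ppox-207, of protoporphyrinogen oxidase, had 5.14 and 9.62 TPM and spanned 5 introns of the coding model Ppox-201, with 2.50% and 4.27% of its gene. The 10 expressed erythroid transcription regulators with an annotated model had 0 members. Their median gene TPM was 86.9 and 62.9, against 113 and 99.5 for the genes of the members, counted per member. The part of level in this count was not tested.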

How the data were processed

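PolyA RNA-seq of 2 libraries of estradiol-treated G1E-ER4 cells was analysed from the deposited transcript and gene tables. Per the file headers the tables give expected counts, TPM and FPKM, an isoform percent, and lower and upper bounds of a TPM interval, whose level is not stated. These bounds, entered as signal values that are never below 0, were used as deposited by the authors. Per the deposited file notes, reads were placed on mm10 with the GENCODE M4 annotation. No label or header read here names the aligner or the quantifier. The columns have the form of an expectation-maximization quantifier that shares reads between models with common exons, so members with few bases of their own are uncertain. Values were used as deposited, with no further scaling. FPKM values, normalized by the authors, served as an alternative only.

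Transcript types, exons, frames and sequences came from GENCODE M21 on GRCm38, matched by unversioned transcript ID. Of 103639 Ensembl rows, 101510 matched and 2129 did not. Of the 910 members, 881 had the same length in the tables as in M21 and 29 did not, and the type and structure of those are uncertain. The 26248 numbered rows that name no gene held 2 expected counts in replicate 1 (5.21e-06% of the deposited counts) and 0 in replicate 2. The 97 remaining rows, spike-ins, held 0.

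An intron counted as spanned where an intron of a protein-coding transcript lay wholly inside 1 exon of the member. A member's share of counts is its expected counts divided by those of all models of the gene. An expressed gene is one with at least 5 TPM in both libraries. Scripts ran in Python 3.11.15 with pandas 2.3.3 and scipy 1.17.1, and the intron and frame steps were tested on simulated models. With 1 group, no test was run across transcripts. The median expected count was 558 and 901 per member. Counts alone do not give the precision of a value, because reads are shared out between models with common exons. Between the libraries, 36.5% of the members differed at least 2-fold in TPM.

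The text names the 15 members of highest mean TPM, the 12 of highest share of counts among those with at least 200 counts, the 3 on each side of the TPM minimum, the 5 of largest fold in each direction and up to 4 per gene list (20 for splicing regulators). Of these, 1 is not reported here. Other names were chosen after their values were seen. The members, lists and comparisons were chosen with earlier results of these data known. The alternatives tried were other minimums, shares, folds, intron definitions and leaving out each library.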

Additional observations from a re-analysis of the deposited data

How the results depend on the processing

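Of 50 alternative values, 22 moved by less than the spread between the libraries, or by less than 1.5 times for counts, and 28 moved further. Minimums of 1, 2 and 20 TPM gave 1818, 1388 and 390 transcripts in place of 910. At 1 and 20 TPM the median isoform share was 18.9% and 51.8% (36.8% at 5 TPM), the median length 808 and 692.5 bases, the number with a 2-fold difference 699 and 129, the number of genes 1307 and 340 (734 at 5 TPM), and the GC of the spanned introns 56.3% and 55.9%. At 1 TPM the spanned introns had a median of 177 bases, and at 20 TPM 167 members held at least 50% of their gene. By expected counts the median share was 23.9% and 144 members held at least 50%, and by TPM 482 held at least 25% and 131 at least 75%. Selection on counts scaled to library size in place of TPM gave a median length of 992 bases. Differences of 1.5-fold and 3-fold were met by 546 and 151 members, and 191 differed 2-fold in isoform percent. At least 50 bases outside the exons of protein-coding models were held by 91.4%, against 36.0% that span an intron. Introns of any other transcript had a GC of 57.3%. The summed TPM, averaged over the libraries, was 135785 and, without the members of Hbb-bs, Hba-a1 and Gapdh, 82148.

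Leaving out each replicate in turn gave 1163 to 1228 transcripts, a median isoform share of 31.0% to 35.1%, 414 to 425 members with at least 50% of their gene and a median length of 737 to 760 bases. The cause of these shifts was not tested, apart from the numbers of transcripts and genes, which a higher minimum lowers by construction. No paired analysis was possible because the series holds 1 group. Depth limits the lowest members: 7 in replicate 1 and 1 in replicate 2 had under 50 expected counts. The deposited TPM lay outside its own deposited interval for 34 and 19 members.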

Other observations

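Some retained-intron transcripts were high in 1 library and fell under the minimum in the other, and so were no members. There were 43 with at least 50 TPM in 1 library and under 5 in the other, 13 high in replicate 1 and 30 high in replicate 2. They were chosen after their values were seen. How many transcripts of other types met the same rule, and in which direction, was not computed, so these counts do not set retained-intron transcripts apart. Tpt1-208, a further model of the Tpt1 gene, was listed at 0 in replicate 1 and had 485 TPM in replicate 2. Rpl6-206, of a ribosomal protein, was listed at 0 and had 216 TPM, and Car2-203, of the red cell carbonic anhydrase, had 0.50 and 171 TPM. In the other direction, Rps2-204 had 158 and 0.36 TPM, and Lrrc59-202 had 158 TPM and was listed at 0 in replicate 2. Tpt1-206 was given most of the Tpt1 gene's TPM in both libraries (50.4% and 71.3%). Of the lesser models, Tpt1-203 was high in replicate 1 (40.3% and 0.52%) and Tpt1-208 in replicate 2 (0% and 22.2%), while the gene's TPM was 1893 and 2189. The part of how reads were split between models was not tested.

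Among the erythroid transcription regulators, 18 retained-intron transcripts of 10 expressed genes were annotated, and 2 reached 1 TPM in both libraries. Cbfa2t3-207, of a corepressor bound by the TAL1 complex, had 47.9 and 1.38 TPM. Ldb1-203, of the protein that bridges that complex, had 3.47 and 5.84 TPM.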
